A study of Mus musculus with 6 samples.

Results

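The genes of the STAT and SOCS families described here are Stat3, Stat4, Stat5a, Stat5b, Stat6, Socs1, Socs2, Socs3 and Cish, 9 genes of the 47725 in the deposited table, found by exact match of their symbols. They were measured by RNA-seq in mouse T cells cultured for 3 days with CKBA or with its vehicle DMSO, 3 libraries each. CKBA is made from AKBA (acetyl-keto-boswellic acid), which is found in frankincense resin. All cells came from wild type C57BL/6 mice and started as naive CD4+ T cells. Both groups had the same medium with 10% serum, 10 ng/ml of each of IL-6, IL-23 and TGF-β1, and antibodies to CD28 (2 µg/ml), to IL-4 (5 µg/ml) and to IFN-γ (10 µg/ml), a mixture that drives the TH17 fate. The dose of CKBA, the time of its addition and the number of mice were not given in the sources used here. No source says whether the 3 libraries of a group are from 3 cultures or mice, so the p-values reflect just how these libraries vary, which may be technical variation alone.

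A cytokine that binds its receptor activates the JAK kinases attached to it, and these phosphorylate STAT proteins, which enter the nucleus and act as transcription factors. STAT3 carries the signals of IL-6, IL-21 and IL-23 and is required for TH17 cells, STAT4 those of IL-12 and IL-23, STAT5A and STAT5B those of IL-2 and IL-7, and STAT6 those of IL-4. The SOCS proteins and CIS, the product of Cish, are switched on by STATs and bind receptors or JAKs to limit the signal, which makes their transcripts a common readout of STAT activity.

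The labels name skin epidermis as the tissue and CD4+ T cells as the cell type. All 8 T cell markers checked were expressed, at a summed level of 2066 to 2256 CPM (counts scaled to library size) with CKBA and 2690 to 2752 CPM with DMSO, and 2 of them, Cd3d and Cd28, were lower with CKBA. Of 8 keratinocyte markers, 6 were at 0 in every library, and the list summed to 1.76 to 2.00 CPM with CKBA and 0.932 to 1.42 CPM with DMSO. Of 5 fibroblast markers, 3 were at 0 in every library. The 5 B cell markers summed to 12.1 to 54.2 CPM with CKBA and 20.6 to 27.2 CPM with DMSO, with Ms4a1 higher, the 6 CD8 and NK cell markers to 47.7 to 51.2 CPM with CKBA and 53.0 to 63.4 CPM with DMSO, with Eomes higher and Cd8a lower, and the 6 myeloid markers to 2.81 to 4.83 CPM with CKBA and 3.83 to 5.34 CPM with DMSO. Of the 5 markers that differed, Cd28 was called in all 6 fits that each left out 1 library, and the others in 1 or 2 of them. With the replicate number as a block, 5 T cell markers were lower and Ms4a1 was no longer called (edgeR, adjusted p = 0.0913), and DESeq2 called 4 T cell markers lower. Of all tested genes, edgeR without the block called 17.1% in either direction and 9.23% lower. In either direction, the block called 28.2% of all tested genes and DESeq2 21.7%. The part of these marker levels in the results that follow was not tested. In such bulk samples, fewer cells of a type and less RNA per cell cannot be told apart. Total counts were 20622192 to 25331863 with CKBA and 19838347 to 20687649 with DMSO. Replicate 3 stood apart from replicates 1 and 2 in both groups, with a chi-square per gene of 35.1 to 38.3 against them, where replicates 1 and 2 differed by 2.84 with CKBA and 3.34 with DMSO. Results are therefore given by library.

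Among the 9 genes, Stat4 and Socs3 had the clearest change: Stat4 stood at 0.474 and Socs3 at 0.522 times the DMSO level in the CKBA cultures. Stat3 and Stat5b were lower by a smaller amount. Stat5a, Stat6, Socs1, Socs2 and Cish did not pass the test. A gene was called when its p in the quasi-likelihood test of edgeR, adjusted by Benjamini-Hochberg over all 13928 tested genes, was under 0.05. All 9 genes were tested, and 4 were called lower and 0 higher. At an unadjusted p under 0.05 the counts were 5 lower and 1 higher, where 32.7% of all tested genes passed, 16.9% lower and 15.9% higher. DESeq2 called 4 lower and 1 higher, and 21.7% of all tested genes. Of all tested genes edgeR called 17.1%, 7.86% as higher and 9.23% as lower, and the median log2 fold change of all tested genes was 0.01. That of the 9 genes was -0.19. In 5 of the 9 genes the CKBA libraries did not overlap the DMSO libraries, as in 36.6% of all tested genes.

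Stat3 encodes the transducer of IL-6 and IL-23, the cytokines added to these cultures. It lies on chromosome 11 (GRCm38, 100885098 to 100939540, minus strand). Stat3 had 658, 629 and 633 CPM in CKBA replicates 1, 2 and 3, against 800.2, 823 and 724 CPM in DMSO replicates 1, 2 and 3. Every CKBA library was below every DMSO library, and DMSO replicate 3 was nearest to the CKBA level. The means were 640.0 ± 16.0 CPM with CKBA and 783 ± 51.9 CPM with DMSO (SD, n = 3 each), a log2 fold change of -0.29 ± 0.08 (SE, edgeR, adjusted p = 0.0370). This call was lost without CKBA replicate 1, CKBA replicate 2, DMSO replicate 1 or DMSO replicate 2 (adjusted p = 0.109, 0.153, 0.153 and 0.180, edgeR).

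Stat4 encodes the transducer of IL-12 that directs TH1 cells and also answers IL-23 (chromosome 1, 51987148 to 52107189, plus strand). It had 13.7, 14.3 and 20.8 CPM in CKBA replicates 1, 2 and 3, against 34.7, 33.0 and 35.5 CPM in DMSO replicates 1, 2 and 3. The groups were far apart, and CKBA replicate 3 was the highest of its group. Stat4 averaged 16.3 ± 3.96 CPM with CKBA and 34.4 ± 1.31 CPM with DMSO (SD, n = 3 each), a log2 fold change of -1.08 ± 0.16 (edgeR, adjusted p = 0.00563). It was called whichever of the 6 libraries was left out, with an adjusted p of at most 0.0323 (edgeR). Part of its exon sequence, 21.7% of its 50-base words, is shared with Gm28177, a transcript annotated inside the gene on the same strand, which had 2 to 13 counts per library.

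Stat5a and Stat5b encode closely similar proteins that carry IL-2 and IL-7 signals. They are neighbours of Stat3 on chromosome 11, Stat5a at 100859351 to 100885169 on the plus strand and Stat5b at 100780731 to 100850724 on the minus strand. Stat5a had 335, 341 and 370.05 CPM in CKBA replicates 1, 2 and 3, against 309, 336 and 357 CPM in DMSO replicates 1, 2 and 3. Stat5b had 371, 367 and 407 CPM in CKBA replicates 1, 2 and 3, against 459, 458 and 453 CPM in DMSO replicates 1, 2 and 3. The Stat5a values of the groups overlapped, while every Stat5b value with CKBA was below every one with DMSO. Stat5a averaged 349 ± 18.8 CPM with CKBA and 334 ± 24.2 CPM with DMSO (SD, n = 3 each), a log2 fold change of 0.06 with a 95% interval of -0.13 to 0.25 (edgeR, adjusted p = 0.642). Stat5b averaged 382 ± 21.7 CPM with CKBA and 457 ± 3.39 CPM with DMSO (SD, n = 3 each), a log2 fold change of -0.26 ± 0.07 (edgeR, adjusted p = 0.0423). The Stat5b call was lost without CKBA replicate 1, CKBA replicate 2, DMSO replicate 1, DMSO replicate 2 or DMSO replicate 3 (adjusted p = 0.165, 0.179, 0.153, 0.165 and 0.0537, edgeR).

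RSEM divides reads that fit more than 1 gene, and these 2 genes share exon sequence: 8.21% of the 50-base words of Stat5a occur in Stat5b, and 10.98% of those of Stat5b in Stat5a. These are shares of sequence and not of reads, and how uncertain they make the split between the 2 genes was not measured. Their sum, a choice made after the values were seen, was 705, 709 and 777 CPM in CKBA replicates 1, 2 and 3, against 767, 795 and 809.6 CPM in DMSO replicates 1, 2 and 3. The summed values of the groups overlapped, and the log2 fold change of both counted as 1 gene was -0.11 ± 0.07 (edgeR, adjusted p = 0.320). Stat3 and Stat5a also overlap by 72 bases on opposite strands at their ends.

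Stat6 encodes the transducer of IL-4, a cytokine that anti-IL-4 neutralised in these cultures (chromosome 10, 127642986 to 127660957, plus strand). It had 229, 207 and 237 CPM in CKBA replicates 1, 2 and 3, against 259, 265 and 241 CPM in DMSO replicates 1, 2 and 3. The groups did not overlap, but CKBA replicate 3 and DMSO replicate 3 were close to each other. The log2 fold change was -0.19 ± 0.08, with an interval of -0.37 to -0.00 (edgeR, adjusted p = 0.151), which did not pass the threshold.

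**Figure D1:**
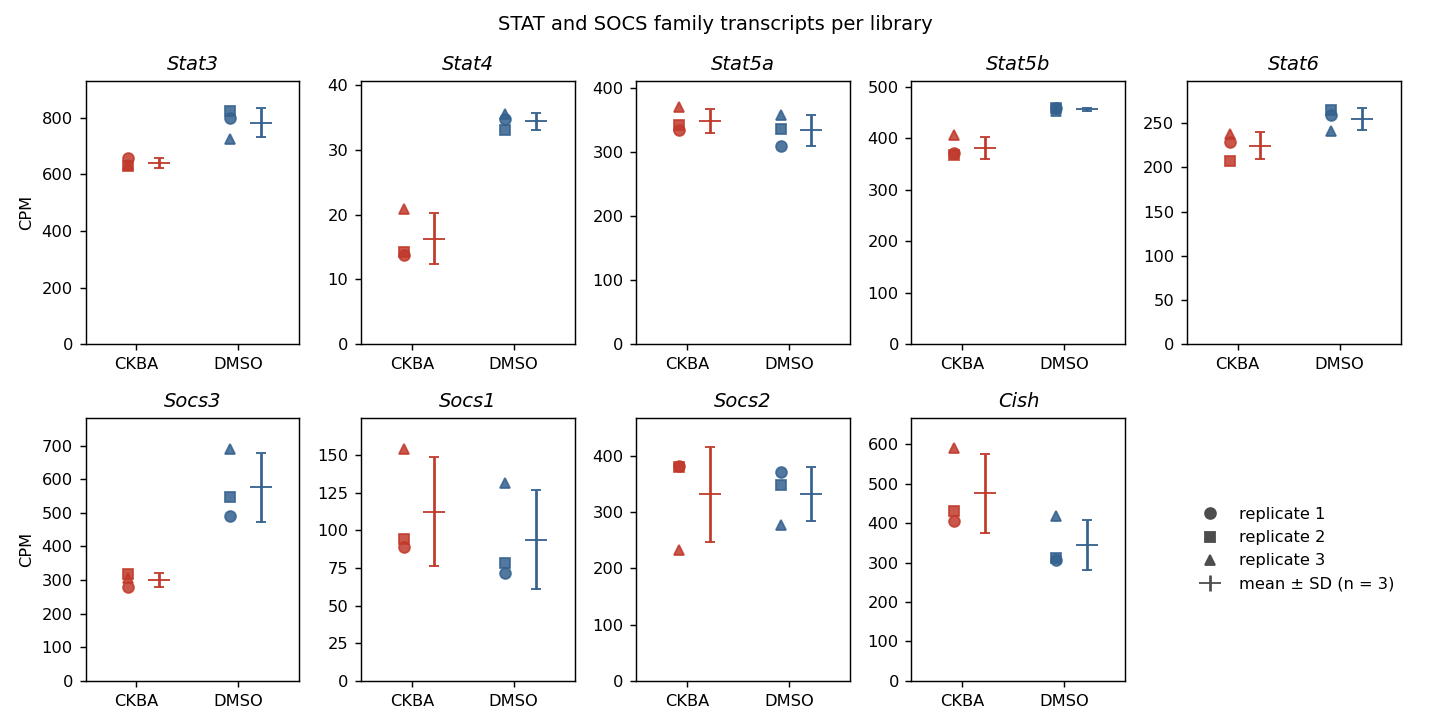
Level of each of the 9 genes in CPM (counts scaled to library size, vertical axes from 0), with CKBA left and DMSO right; symbols mark replicates 1, 2 and 3 and the bar beside them gives mean ± SD (n = 3). The CKBA points lie below all DMSO points for Stat3, Stat4, Stat5b, Stat6 and Socs3, and replicate 3 (triangles) is the highest point of both groups for Socs1 and Cish and the lowest for Socs2.

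Active STAT dimers bind the palindrome TTCNNNGAA, and STAT6 also favours TTCNNNNGAA with 1 more base between the arms. Promoter windows from RefSeq (GRCm38.p6), 250 bases before to 50 after a start site, were found for 8 of the 9 genes, 11 windows in all. TTCNNNGAA occurred in those of Socs3 and Cish, and TTCNNNNGAA in none. No window was matched for Socs2. Both motifs read the same on either strand, and of 32851 mouse promoter windows of the same length 8.30% hold TTCNNNGAA, 0.457% hold it at least 2 times and 6.95% hold TTCNNNNGAA. The Socs3 window lies at chr11:117969317-117969616 on the minus strand, and its motif begins at position -154 from the start site of the window, which is itself at -180 from the start of the coding transcript in GENCODE M21. The Cish motifs begin at positions 0 and 11 from the start site of their window, which is itself at 633, -51 and -253 from the starts of the transcripts Cish-201, Cish-204 and Cish-203 in GENCODE M21. A 30-base stretch that holds both lies at chr9:107296654-107296683 on the plus strand. These sequences are shown because both genes are known STAT targets and hold the motif, printed in capitals. A match is a description of the letters and not evidence of binding in these cells.
Socs3: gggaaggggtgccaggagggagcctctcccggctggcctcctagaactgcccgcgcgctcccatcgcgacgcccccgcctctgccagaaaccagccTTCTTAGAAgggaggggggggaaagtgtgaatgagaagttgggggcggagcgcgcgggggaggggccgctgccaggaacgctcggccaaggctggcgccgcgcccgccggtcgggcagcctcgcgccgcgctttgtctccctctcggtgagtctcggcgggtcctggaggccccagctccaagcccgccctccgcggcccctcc
Cish: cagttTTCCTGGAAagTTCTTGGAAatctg

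Socs3 encodes the inhibitor that binds gp130, the shared receptor chain of the IL-6 family, and limits STAT3 signals (chromosome 11, 117966079 to 117970047, minus strand). It had 279, 317 and 307 CPM in CKBA replicates 1, 2 and 3, against 491, 546 and 691 CPM in DMSO replicates 1, 2 and 3. The CKBA libraries lay close together and below all DMSO libraries, which were more spread. Socs3 averaged 301 ± 20.1 CPM with CKBA and 576 ± 103 CPM with DMSO (SD, n = 3 each), a log2 fold change of -0.94 ± 0.13 (edgeR, adjusted p = 0.00358). The call held whichever of the 6 libraries was left out, with an adjusted p of at most 0.0254 (edgeR). No 50-base word of its exons occurs in another annotated gene.

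Socs1 encodes the inhibitor that blocks JAK kinases directly and restrains interferon-γ and IL-2 signals (chromosome 16, 10782240 to 10785536, minus strand). It had 89.0, 94.2 and 154 CPM in CKBA replicates 1, 2 and 3, against 71.5, 78.5 and 132 CPM in DMSO replicates 1, 2 and 3. Replicate 3 was the highest library in both groups, 1.68 times the geometric mean of replicates 1 and 2 with CKBA and 1.76 times with DMSO, and the groups overlapped. Compared without regard to replicate number, the log2 fold change was 0.26 ± 0.28 (edgeR, adjusted p = 0.557). With the replicate number as a block it was 0.27 ± 0.06 (edgeR, adjusted p = 0.0152). The log2 differences of CKBA over DMSO within replicates 1, 2 and 3 were 0.32, 0.26 and 0.23, all in the same direction. Without CKBA replicate 3 and without the block the log2 fold change was -0.03.

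Cish encodes CIS, which STAT5 switches on and which competes with STAT5 for receptor sites (chromosome 9, 107296026 to 107302784, plus strand). It had 404, 430.1 and 591 CPM in CKBA replicates 1, 2 and 3, against 305, 312 and 418 CPM in DMSO replicates 1, 2 and 3. DMSO replicate 3 was above CKBA replicate 1, so the groups overlapped, but within each replicate number CKBA was the higher library. Cish averaged 475 ± 101 CPM with CKBA and 345 ± 63.3 CPM with DMSO (SD, n = 3 each), a log2 fold change of 0.46 ± 0.17 (edgeR, adjusted p = 0.104). With the replicate block the log2 fold change was 0.46 ± 0.06 (edgeR, adjusted p = 0.00179). Within replicates 1, 2 and 3 the log2 differences were 0.41, 0.46 and 0.50. Cish also passed the threshold without DMSO replicate 3 (edgeR, adjusted p = 0.0320) and in DESeq2 (adjusted p = 0.0426). The gene overlaps Gm17040 and Gm17041 on the opposite strand, which had 8 to 19 counts and 0 counts per library, and whether counting used strand was not given.

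Socs2 encodes a feedback inhibitor known mainly for limiting growth hormone signals (chromosome 10, 95385362 to 95417180, minus strand). It had 381, 379 and 233 CPM in CKBA replicates 1, 2 and 3, against 370.1, 347 and 278 CPM in DMSO replicates 1, 2 and 3. Replicate 3 was the lowest library in both groups, opposite to Socs1 and Cish, and the groups overlapped fully. The log2 fold change was -0.00, with an interval of -0.45 to 0.44 (edgeR, adjusted p = 0.993).

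With the replicate number as a block, 28.2% of all tested genes were called, and of the 9 genes Socs1 and Cish were called higher and Stat3, Stat4, Stat5b and Socs3 lower. The SE with the block was 0.06 for Socs1, 0.08 for Socs2 and 0.06 for Cish, against 0.28, 0.19 and 0.17 without it. When replicates 1 and 2 were added up to 1 library per group, 0.732% of the tested genes were called and none of the 9, with an adjusted p of 0.0745 for Socs3, 0.122 for Stat4, 0.424 for Stat3 and 0.464 for Stat5b (edgeR). At an unadjusted p under 0.05, 2 of the 9 genes were lower and 0 higher in that fit, with 2 samples a group, and 7.9% of all tested genes were lower. In the authors' deposited table, the false discovery rate was 4.25e-08 for Socs3, 2.89e-06 for Stat4, 0.0397 for Cish, 0.13 for Stat3 and 0.182 for Stat5b. Of the 9 genes, the authors marked only Stat4 as significant there. Socs3 and Cish were not marked, although their rates were under 0.05.

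**Figure D2:**
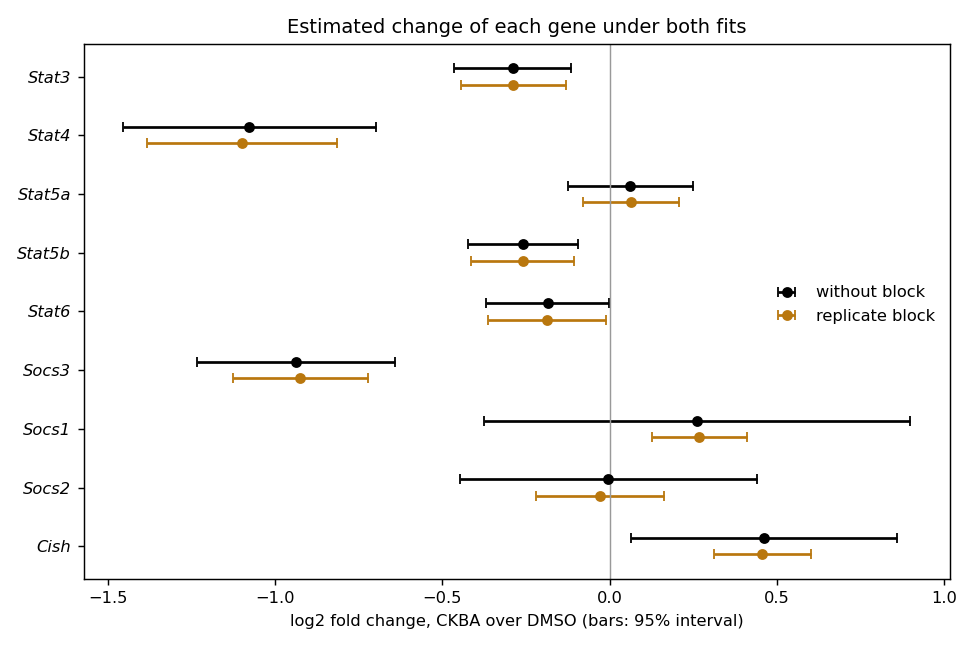
Log2 fold change of CKBA over DMSO for each of the 9 genes (points) with its 95% interval (bars), without the replicate block (black) and with it (orange). Socs1 and Cish keep almost the same estimate under both fits while their intervals shrink (0.13 to 0.41 with the block for Socs1, -0.38 to 0.90 without it), and Stat4 and Socs3 lie far below 0 in both.

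Levels of different genes can be compared only per transcript length, for which the authors' FPKM values were used. Socs3 had the highest mean of the 9 genes in both groups, 104 ± 8.05 FPKM with CKBA and 200.4 ± 40.1 FPKM with DMSO (SD, n = 3 each). With DMSO every Socs3 library was above every library of the other 8 genes, whereas with CKBA its range overlapped that of Socs1, at 92.0 ± 31.1 FPKM. Cish followed by mean with CKBA at 73.8 ± 16.8 FPKM, where its range overlapped those of Socs1, Stat5b and Stat3. It had 54.0 ± 11.1 FPKM with DMSO, where its mean was below those of Stat5b, Stat3, Socs1 and Stat6. Stat5b and Stat3 had 68.6 ± 4.85 and 66.8 ± 1.05 FPKM with CKBA, and 82.6 ± 1.09 and 82.3 ± 3.87 FPKM with DMSO. Their libraries overlapped each other in both groups, so their order was not resolved. Stat6 had 50.8 ± 3.82 FPKM with CKBA and 58.1 ± 1.71 FPKM with DMSO. Stat5a had 48.7 ± 3.36 FPKM with CKBA and 47.0 ± 4.24 FPKM with DMSO. Stat6 overlapped Stat5a with CKBA, and Cish overlapped both of its neighbours Stat6 and Stat5a, and also Socs1, with DMSO. In both groups Socs2, at 34.5 ± 8.44 FPKM with CKBA and 34.8 ± 4.43 FPKM with DMSO, was below Stat5a in every library. Stat4 was the lowest, at 4.19 ± 1.08 FPKM with CKBA and 8.92 ± 0.501 FPKM with DMSO, and did not overlap Socs2 in either group.

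**Figure D3:**
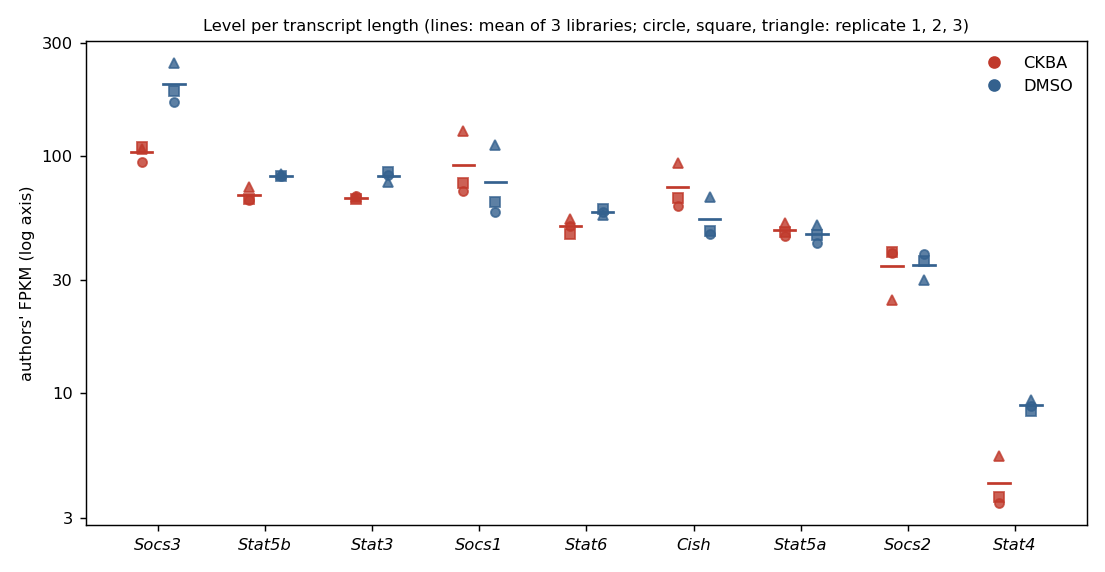
Level of each gene per transcript length (authors' FPKM, log axis) with CKBA (red, left of each pair) and DMSO (blue, right); symbols mark replicates 1, 2 and 3 and lines the group means. Socs3 leads with DMSO at a mean of 200.4 FPKM, joins the range of Socs1 with CKBA, and Stat4 is lowest in both groups.

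Ratios of 2 genes within a library do not depend on how libraries are scaled. The 3 ratios given were picked after the values were seen, so they are a description and carry no test. The Cish count over the Socs3 count was 1.45, 1.36 and 1.93 in CKBA replicates 1, 2 and 3, against 0.621, 0.571 and 0.605 in DMSO replicates 1, 2 and 3. Cish thus had more counts than Socs3 in every CKBA library and fewer in every DMSO library. Counts also depend on transcript length, and in the authors' FPKM Socs3 was above Cish in every library of both groups. The Socs1 count over the Socs3 count was 0.320, 0.297 and 0.503 in CKBA replicates 1, 2 and 3, against 0.145, 0.144 and 0.191 in DMSO replicates 1, 2 and 3. Every CKBA ratio was above every DMSO ratio. The Stat5a count over the Stat5b count was 0.903, 0.929 and 0.910 in CKBA replicates 1, 2 and 3, against 0.673, 0.733 and 0.789 in DMSO replicates 1, 2 and 3, again with no overlap. This last ratio also depends on how RSEM divided the reads that fit both genes.

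**Figure D4:**
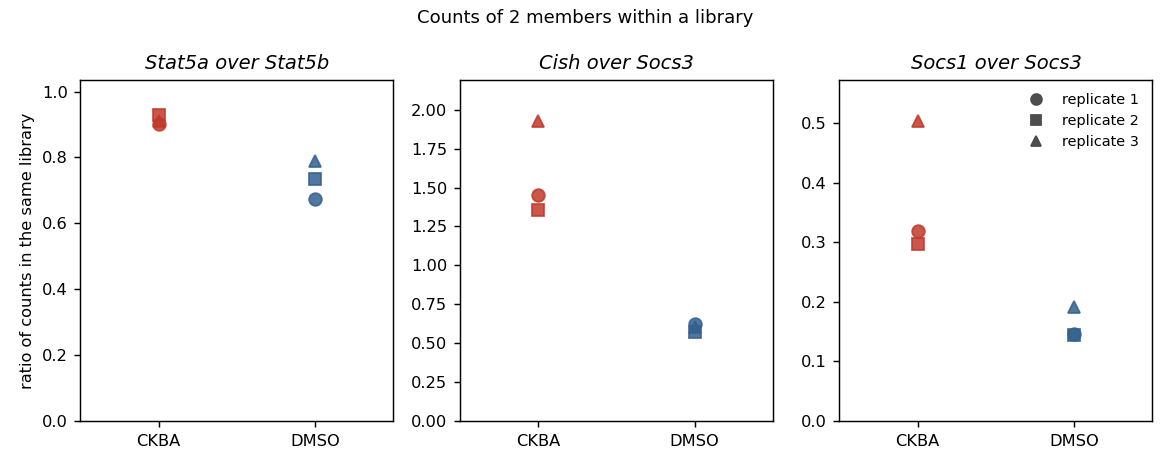
Ratio of the counts of 2 genes in the same library (vertical axes from 0), with CKBA left and DMSO right; symbols mark replicates 1, 2 and 3. All 3 ratios are higher in each CKBA library than in any DMSO library. Cish over Socs3 is above 1 with CKBA and below 1 with DMSO. These counts are not scaled to transcript length, and in FPKM Socs3 is above Cish in every library.

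Of the 6 other STAT and SOCS genes, 0 were called in either direction by edgeR or DESeq2, with 2 higher and 0 lower at an unadjusted p under 0.05 in each, a share close to the 32.7% of all tested genes in edgeR. Their median log2 fold change was -0.08. Stat2, a transducer of type I interferon signals, had 75.3 ± 7.96 CPM with CKBA and 83.8 ± 11.8 CPM with DMSO (SD, n = 3 each). With the replicate block Socs4, outside the rule for named genes, was called higher (edgeR, adjusted p = 0.0188).

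Among cytokines that signal through STATs, 3 of 12 tested genes were higher and 4 lower, against 7.86% and 9.23% of all tested genes. Il3 and Csf2, which signal through STAT5, and Ifng, which encodes interferon-γ, were the higher ones. Ifng averaged 16.2 ± 5.27 CPM with CKBA and 5.06 ± 0.197 CPM with DMSO (SD, n = 3 each), a log2 fold change of 1.68 ± 0.25 (edgeR, adjusted p = 0.00484). Il3 had 2.69 ± 1.18 CPM with CKBA and 0.293 ± 0.0456 CPM with DMSO, and Csf2 had 5.87 ± 1.48 CPM with CKBA and 0.669 ± 0.660 CPM with DMSO, so all 3 were at low levels. The lower ones were Il24 and, named after their values were seen, Il10, Il21 and Lif, of which IL-10, IL-21 and LIF signal through STAT3. Il21 had 43.1 ± 24.4 CPM with CKBA and 259.9 ± 97.6 CPM with DMSO (SD, n = 3 each), a log2 fold change of -2.60 ± 0.50 (edgeR, adjusted p = 0.0130). The 4 lower fell to 0 without CKBA replicate 1, DMSO replicate 1 or DMSO replicate 2 and to 1 without CKBA replicate 2. Of all tested genes, 5.59% were called without CKBA replicate 1 and 5.52% without CKBA replicate 2. Without DMSO replicate 1 or DMSO replicate 2 it was 4.80% and 4.48%, and with the block 28.2%. Csf2 lost its call without DMSO replicate 2 (edgeR, adjusted p = 0.0676). With the block 5 were higher and 3 lower, with Il10 no longer called (edgeR, adjusted p = 0.0604), and the median of the list was -0.05 there, against 0.33 without the block and -0.04 without CKBA replicate 3.

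Of 20 tested receptor genes that signal through STATs, 8 were lower and 2 higher, against 9.23% and 7.86% of all tested genes. The median log2 fold change of the 20 was -0.27. Il7r, the receptor chain for IL-7 upstream of STAT5, had 24.2, 30.9 and 40.5 CPM in CKBA replicates 1, 2 and 3, against 171, 165 and 116 CPM in DMSO replicates 1, 2 and 3. The groups were far apart in all libraries. Its log2 fold change was -2.24 ± 0.21 (edgeR, adjusted p = 8.75e-04). Il4ra, the IL-4 receptor chain upstream of STAT6, averaged 336 ± 28.9 CPM with CKBA and 750.2 ± 197 CPM with DMSO (SD, n = 3 each). Il12rb2, the IL-12 receptor chain that recruits STAT4, averaged 5.65 ± 1.63 CPM with CKBA and 37.0 ± 18.6 CPM with DMSO. Il23r, the IL-23 receptor chain, averaged 0.157 ± 0.121 CPM with CKBA and 3.37 ± 1.89 CPM with DMSO. The higher ones, named after their values were seen, were Il9r and Csf2rb, at 1.18 ± 0.630 and 4.27 ± 0.320 CPM with CKBA and 0.200 ± 0.186 and 2.41 ± 0.0339 CPM with DMSO. Il12rb2 lost its call without CKBA replicate 1 or CKBA replicate 3 (adjusted p = 0.0584 and 0.0564, edgeR). Over the list, 3 receptors were lower without CKBA replicate 1 and 4 without CKBA replicate 2, DMSO replicate 1 or DMSO replicate 2, with 0 higher in each of these fits. These fits called 4.48% to 5.59% of all tested genes. With the block 10 receptors were lower and 4 higher, where 28.2% of all tested genes were called.

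Of the 4 JAK kinases, 1 was lower and 0 higher, while 3 were lower at an unadjusted p under 0.05 and DESeq2 called 2 lower and 0 higher, against 32.7% and 21.7% of all tested genes in either direction. The median log2 fold change of the 4 was -0.22. In the main edgeR fit 9.23% of all tested genes were lower and 7.86% higher. Jak3, the kinase bound to the common γ chain of the IL-2 and IL-7 receptors, had 421, 451 and 582 CPM in CKBA replicates 1, 2 and 3, against 788, 884 and 771 CPM in DMSO replicates 1, 2 and 3. All CKBA libraries were below all DMSO libraries. Its log2 fold change was -0.75 ± 0.13 (edgeR, adjusted p = 0.00848), and without DMSO replicate 2 its adjusted p was 0.0503. Jak1, which serves the IL-6 and IL-2 receptor families, averaged 498 ± 25.5 CPM with CKBA and 579.8 ± 17.6 CPM with DMSO (SD, n = 3 each, adjusted p = 0.0729, and 0.0479 with the replicate block, edgeR). The 12 other inhibitors of the pathway included phosphatases, PIAS proteins and ubiquitin ligases. Of these 12 genes, 1 was lower and 0 higher, with 2 and 0 at an unadjusted p under 0.05 and by DESeq2. Their median log2 fold change was -0.05. The lower one was Ptprc, which encodes the phosphatase CD45, at 1004 ± 119.6 CPM with CKBA and 1572 ± 63.0 CPM with DMSO (SD, n = 3 each), a log2 fold change of -0.65 ± 0.10 (edgeR, adjusted p = 0.00534). Cbl, a ubiquitin ligase, averaged 358 ± 25.7 CPM with CKBA and 399 ± 12.1 CPM with DMSO, and Ptpn1, a phosphatase that acts on JAKs, 372 ± 19.2 CPM with CKBA and 359 ± 7.89 CPM with DMSO, neither past the threshold. With the block 2 of the 12 inhibitors were lower, where 28.2% of all tested genes were called. Without CKBA replicate 3, 3 of the 4 kinases and 3 of the 12 inhibitors were lower, where 27.9% of all tested genes were called.

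Of 17 known STAT3 targets in T cells, 14 were lower with CKBA and 0 higher, with the same counts at an unadjusted p under 0.05 and by DESeq2. EdgeR called 9.23% of all tested genes lower and 7.86% higher, and DESeq2 21.7% in either direction. At an unadjusted p under 0.05 it was 16.9% lower and 15.9% higher (edgeR). The median log2 fold change of the 17 targets was -0.99. Il17a, the cytokine that marks TH17 cells, had 11.5, 11.8 and 13.0 CPM in CKBA replicates 1, 2 and 3, against 165, 161 and 93.4 CPM in DMSO replicates 1, 2 and 3. DMSO replicate 3 was the lowest of its group and still far above the CKBA libraries. Il17f fell to 161 ± 72.5 CPM with CKBA, against 1328 ± 352 CPM with DMSO, and Fosl2, an AP-1 subunit, to 73.9 ± 18.8 CPM with CKBA, against 198 ± 31.8 CPM with DMSO (SD, n = 3 each). Socs3 is itself on this list. The count was 9 lower without CKBA replicate 1 or DMSO replicate 2, where 5.59% and 4.48% of all tested genes were called. It was 2 lower with replicates 1 and 2 summed, Il17a among them (edgeR, adjusted p = 0.0256), where 0.732% were called.

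Of 17 known STAT5 targets, 6 were lower and 1 higher, against 9.23% and 7.86% of all tested genes. The median log2 fold change of the 17 was -0.14. The 4 feedback inhibitors Cish, Socs1, Socs2 and Socs3 belong to this list and are described above. Gzmb, which encodes granzyme B, had 14.3, 12.6 and 14.4 CPM in CKBA replicates 1, 2 and 3, against 105, 73.5 and 89.2 CPM in DMSO replicates 1, 2 and 3. It was the named gene with the smallest adjusted p, 1.96e-04 (edgeR), with a log2 fold change of -2.69 ± 0.14. Pim1 and Pim2, survival kinases that STAT signals induce, averaged 267 ± 59.7 and 53.6 ± 8.11 CPM with CKBA and 525 ± 103 and 163 ± 68.0 CPM with DMSO (SD, n = 3 each), and were called in 2 and 1 of the 6 fits that each left out a library. The higher one, named after its values were seen, was Foxp3, the regulatory T cell factor, at 626 ± 21.4 CPM with CKBA and 238 ± 163 CPM with DMSO (adjusted p = 0.0472, edgeR, and 0.112 with the replicate block). Foxp3 had 135, 154 and 426 CPM in DMSO replicates 1, 2 and 3. Of the 6 fits that each left out a library, only that without DMSO replicate 3 called it. DESeq2 did not call it (adjusted p = 0.0631). The counts were 2 lower and 0 higher without CKBA replicate 1, CKBA replicate 2, DMSO replicate 1 or DMSO replicate 2. These fits called 4.48% to 5.59% of all tested genes. Without DMSO replicate 3 the counts were 8 lower and 3 higher, where 21.9% of all tested genes were called. With the block they were 6 lower and 4 higher, where 28.2% of all tested genes were called.

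Of 8 STAT4 targets, 1 was lower and 1 higher, Il12rb2 and Ifng, against 9.23% and 7.86% of all tested genes. Values of both genes are given above, and the median log2 fold change of the 8 was -0.21. Of 8 STAT6 targets, 2 were lower and 1 higher, against the same shares, with a median of -0.09. Il4ra and Il24 were the lower ones. Il24 averaged 1.59 ± 0.582 CPM with CKBA and 6.50 ± 2.56 CPM with DMSO, and Ccr8, a chemokine receptor of TH2 and regulatory T cells and the higher one, 101 ± 37.4 CPM with CKBA and 34.6 ± 22.1 CPM with DMSO (SD, n = 3 each). Ccr8 kept its call only without DMSO replicate 3, of the 6 fits that each left out a library, and its adjusted p without CKBA replicate 3 was 0.193 (edgeR). With the block 3 STAT4 targets were lower and 2 STAT6 targets higher, where 28.2% of all tested genes were called. Without 1 library that share was 4.48% to 5.59%, except 27.9% without CKBA replicate 3 and 21.9% without DMSO replicate 3. Among STAT4 targets 0 were lower without CKBA replicate 1, 4 were lower without CKBA replicate 3, and 2 were higher without CKBA replicate 3 or DMSO replicate 3. Among STAT6 targets 1 was lower without CKBA replicate 1, DMSO replicate 1 or DMSO replicate 2, and their median turned positive, at 0.19, with CKBA replicate 2 left out and, at 0.01, with DMSO replicate 2 left out. The lists of cytokines, receptors and targets share genes with each other, and those of STAT3 and STAT5 targets hold some of the 9 genes. No list was tested as a set.

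**Figure D5:**
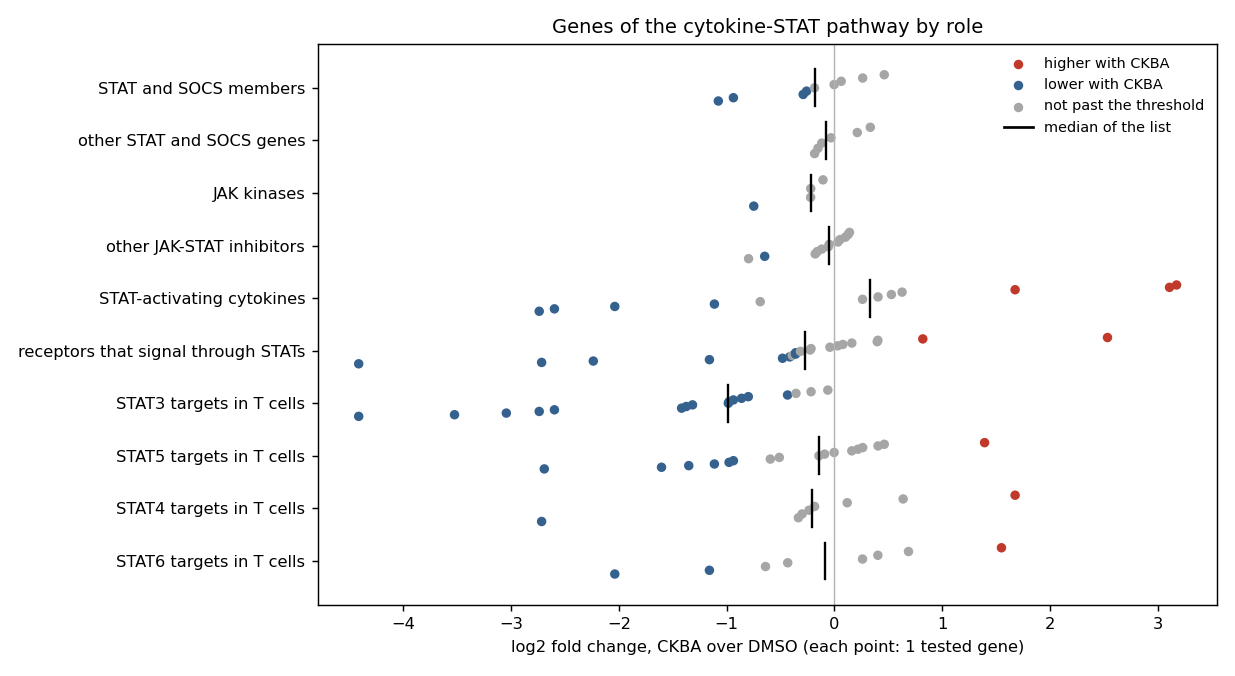
Log2 fold change of CKBA over DMSO for every tested gene of each list (points; red higher and blue lower past the threshold, grey not past it), with the list median as a black line. The STAT3 target list lies furthest left, with 14 of 17 genes lower and a median of -0.99, while the 9 STAT and SOCS genes have a median of -0.19.

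The tested genes of at least 10 CPM whose centred log2 profile over the 6 libraries was nearest to that of Socs3 or Cish were picked from 9061 candidates by the root mean square difference. For Socs3 they were Zfp36, which encodes an mRNA decay factor, Lax1, an adaptor that restrains antigen receptor signals, and Usp35, a deubiquitinase, with differences of 0.0879, 0.0948 and 0.101 on the log2 scale. Zfp36 averaged 61.2 ± 3.69 CPM with CKBA and 106 ± 22.4 CPM with DMSO (SD, n = 3 each). For Cish they were Prdm2, a zinc finger protein of the PR domain family, Gnaq, a G protein α subunit, and Nlrc5, the activator of MHC class I genes, with differences of 0.0320, 0.0480 and 0.0508. Prdm2 averaged 218 ± 51.3 CPM with CKBA and 159 ± 31.1 CPM with DMSO (SD, n = 3 each).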

How the data were processed

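Estimated counts for each gene in each library made up the deposited table, and the submitters' processing notes name RSEM (version not given), CASAVA 1.8 and the GRCm38 build. These deposited expected counts needed no rounding, being whole already. The aligner, the annotation release and whether counting used strand were not given in the sources used here. FPKM values of each library, made by the authors and deposited beside the counts, served for levels per length and for 1 of the alternatives. Log2 fold changes and p-values of the authors' own comparison, with false discovery rates, were deposited too and are printed only where named; the notes name edgeR. Of 47725 identifiers, 47306 matched GENCODE M21.

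The test across genes was the quasi-likelihood test of edgeR 4.0.16 (R 4.3.3), with TMM normalization, filterByExpr, robust dispersions and Benjamini-Hochberg adjustment over all 13928 tested genes, at an adjusted p under 0.05. CPM are counts scaled to library size after TMM. Errors are the SD over 3 libraries for levels and the SE for log2 fold changes of CKBA over DMSO. The fits were tested on simulated data. Alternatives were DESeq2 1.42.0, edgeR's RLE size factors, no filter, limma 3.58.1 on log2(FPKM + 0.5) or log2(FPKM + 0.1), the replicate block, and fits that leave out or sum libraries. Lists were described by counts and medians.

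The labels give both groups the replicate numbers 1 to 3 without saying what a number marks. Deviations from the group means correlated by 0.244, 0.235 and 0.436 between libraries of the same number, over all tested genes. The numbers were therefore used as a block, but only as an alternative, and the main test had no block. This choice rests on the data and not on the labels. Replicates 1 and 2 paired crosswise gave 0.232 and 0.244, and replicate 3 paired with replicate 1 or 2 gave -0.327 to -0.312. The values thus set replicate 3 apart but do not tell which of replicates 1 and 2 pair.

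The 9 genes and all lists were chosen with earlier results of these data known. Named genes were the 9 genes, up to 4 called genes of each other list by adjusted p (the 2 most abundant where fewer than 2 passed) and the 3 genes nearest in profile to Socs3 and Cish. Some genes that this rule takes are not reported here. Others are marked as named after their values were seen. Promoter sequences came from RefSeq, GRCm38.p6.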

Additional observations from a re-analysis of the deposited data

How the results depend on the processing

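In all 15 alternatives Stat4 and Socs3 were lower, with log2 fold changes of -1.30 to -0.97 and -1.04 to -0.78, and were called in 14. Stat3 was called in 8 and Stat5b in 5. DESeq2 called 1 of the 9 genes higher, and 21.7% of all tested genes. Without a filter on low counts 2 of the 9 were lower, and 9.73% of the tested genes were called. With no filter, limma on log2(FPKM + 0.5) called 2 of the 9 lower and 3.68% of the tested genes, 381 higher and 520 lower. The replicate block gave 1922 higher and 2009 lower, 28.2% of all tested genes. It called 2 of the 9 higher and changed no other call among them. With replicates 1 and 2 summed, 56 were higher and 54 lower, 0.732% of the tested genes, and 0 of the 9 were lower. With neither replicate 3, 3660 were higher and 3728 lower, 52.8% of the 14001 tested genes. In that fit 2 of the 9 were higher and 5 lower, Stat6 among the lower. It rests on replicates 1 and 2, the closest libraries of each group. Leaving out 1 library gave 251 to 1961 higher and 390 to 2014 lower, 4.48% to 27.9% of the tested genes. Of the 9 genes, 0 to 1 were higher and 2 to 4 lower in these fits. Leaving out CKBA replicate 1 gave 348 higher and 455 lower genes, CKBA replicate 2 gave 347 and 444, CKBA replicate 3 gave 1961 and 2014, DMSO replicate 1 gave 269 and 417, and DMSO replicate 2 gave 251 and 390, against 1095 and 1286 with all libraries. The log2 fold change of Socs2, -0.00 with all libraries, changed sign to 0.0064 with no filter and 0.084 with neither replicate 3, and lay between -0.11 and 0.20 when 1 library was left out, above 0 without CKBA replicate 3 (0.20), DMSO replicate 1 (0.082) or DMSO replicate 2 (0.035). That of Socs1 lay between -0.034 and 0.59, below 0 without CKBA replicate 3. The cause was not tested.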
